A study of Homo sapiens with 18 samples.

Results

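The expression of 9 genes for NADPH supply was followed in ARPE-19 cells, a human retinal pigment epithelial cell line. They are PGLS, PGD, TKT, TALDO1, RPIA and the RPE gene of the pentose phosphate pathway, with ME1, IDH1 and NNT, which make NADPH in other ways. The rule names them by their role, and all 9 of 9 are among the 23411 gene symbols of the series and passed the filter on low counts in every comparison. The mRNA of 18 samples was sequenced, 3 in each of 6 groups. Control cells were transduced with a Cas9 vector that lacks a guide RNA. NRF2 ΔC cells, which are a single clone, received the same vector with a guide RNA to exon 5 of NFE2L2, the gene for the transcription factor NRF2, and their alleles have stop codons at positions 503 and 505. Cells of each line were given water (untreated), 1 mM NACET, the ethyl ester of N-acetylcysteine, or 0.2 mM H2O2. The series design gives 8 h of treatment after 40 h of culture in 10% serum, whereas the sample protocols give 2 h after 22 h in 1% serum. The paper goes with the series design: it reports 8 h treatments begun 40 h after seeding. It also states that experiments after its first sequencing used 10% serum.

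NADPH is the reducing agent that cells spend on glutathione and thioredoxin reduction and on lipid synthesis. In the oxidative branch of the pentose phosphate pathway, lactonase (PGLS) and phosphogluconate dehydrogenase (PGD) turn glucose 6-phosphate derivatives into ribulose 5-phosphate, and PGD yields NADPH. The non-oxidative branch, made of an isomerase (RPIA), an epimerase (RPE), transketolase (TKT) and transaldolase (TALDO1), moves carbon between ribose 5-phosphate and glycolysis. Malic enzyme 1 (ME1) and isocitrate dehydrogenase 1 (IDH1) make NADPH in the cytosol, and nicotinamide nucleotide transhydrogenase (NNT) makes it in mitochondria. Retinal pigment epithelium lives under a high oxidant load, and NRF2 is known as an activator of several genes for NADPH supply. Under stress NRF2 binds the antioxidant response element, whose core is TGACNNNGC.

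This core was searched on both strands of the promoters that RefSeq gives for the 9 genes on GRCh38.p14 (250 bases before to 50 bases after each start), which hold 11 windows since IDH1 and NNT have a pair each. Each window matched a single place in GRCh37, the build of the files (hg19), and positions are given there. ME1, PGD, IDH1 and the RPE gene had a match upstream of the start, and TKT, TALDO1, PGLS, RPIA and NNT had none in these windows. Over all 35116 promoter windows of the same length, 13.3% held the core. The upstream part of the ME1 promoter is shown whole because ME1 was the member that changed with treatment, and the other matches are shown with their neighbouring bases. Capitals mark the core.
ME1, chr6:84140771-84141020, minus strand: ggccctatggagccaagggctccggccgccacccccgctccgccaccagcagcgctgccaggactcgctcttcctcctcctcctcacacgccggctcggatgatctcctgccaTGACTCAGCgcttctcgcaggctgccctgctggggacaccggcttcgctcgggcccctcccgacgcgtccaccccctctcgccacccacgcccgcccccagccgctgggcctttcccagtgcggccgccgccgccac
PGD, chr1:10458910-10458939, plus strand: cctcgccgggGCAATGTCAtctaggtgctc
RPE gene, chr2:210867201-210867230, plus strand: ggcggacggcTGACAGCGCcccaccccagg
IDH1, upstream start, chr2:209119919-209119948, minus strand: cccctctcgcTGACTCCGCccatcccacgg
In ME1 the core lay 137 to 129 bases before the start, and another match, on the opposite strand, lay 11 to 19 bases after it. The ME1 core contains TGACTCA, the AP-1 site, which overlaps it and was found in no other window of the 9 genes and in 4.95% of all windows. In PGD the core is on the opposite strand, 201 to 193 bases before the start. A match of letters is a description of the window and was not tied to binding.

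The genes lie on GRCh37 as annotated in GENCODE v44. PGD is at chr1:10458649-10480568, RPIA at chr2:88991191-89050446, IDH1 at chr2:209100953-209130798 and the RPE gene at chr2:210867289-210886984. TKT is at chr3:53258728-53290068, NNT at chr5:43602794-43707507 and ME1 at chr6:83920121-84140770. TALDO1 is at chr11:747415-765012 and PGLS at chr19:17622445-17632097. All are protein-coding, and the counts cover reads over any exon. The value of the RPE gene is uncertain, since 12.7% of the 50-base stretches of its canonical transcript are also in RPEL1, a near-identical copy, and reads that mapped to several places were not counted. For PGD the share was 5.81% (PGDP1), for NNT 2.73%, for IDH1 0.573% and for the other members 0%. The counting ignored strand, so reads of an antisense or overlapping gene cannot be told apart from those of the RPE gene (KANSL1L), PGLS (PGLS-DT) and NNT (NNT-AS1).

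Each sample held 16673306 to 25951154 reads on genes (median 21447433), and levels are given as CPM, counts scaled to the TMM-adjusted library size. NFE2L2 itself was not a DEG in any comparison, with group means between 106 and 141 CPM, and its total count does not check the edit. Of 13 markers of retinal pigment epithelium, 7 to 9 had at least 1 CPM, with summed levels of 964.8 to 1430 CPM, but RPE65, RLBP1, TYR and TTR were below 1 CPM in all 6 groups. Most of the sum came from KRT8 and KRT18, with group means of 438 to 637 and 297 to 455 CPM. OTX2 and MITF followed, and the other markers had group means of at most 7.26 CPM. Fibroblast markers COL1A1 and PDGFRB were detected, for a sum of 122.9 to 632 CPM over 7 genes, while the other 5 were below 1 CPM. Of 3 leukocyte markers CD68 alone was above 1 CPM, and endothelial and photoreceptor markers summed to 1.64 CPM at most. Replicate 1 of H2O2-treated NRF2 ΔC cells stood apart from replicates 2 and 3 for several members, and calls that change without it are given. Leaving it out added calls of members and removed none. Replicate 1 of the other NRF2 ΔC groups could also stand apart. TALDO1 was at 135 against 168 and 166 CPM untreated, and at 118 against 164 and 174 CPM with NACET. PGLS in untreated cells did not show this (58.4 against 74.8 and 60.4 CPM). Leaving out the H2O2 sample alone keeps its same-numbered samples in the other groups. Nothing in the labels says that replicates were separate cultures, so p-values measure the spread between these samples, which may be technical. In bulk RNA fewer cells of a kind and less RNA per cell cannot be told apart.

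Per kilobase of the canonical transcript, TKT was the most abundant member in untreated control cells (379 ± 23.7 CPM per kb, SD, n = 3). TALDO1 followed at 154 ± 12.3, PGD at 71.2 ± 2.23 and PGLS at 58.6 ± 7.74 CPM per kb. IDH1 was at 21.1 ± 3.87 and NNT at 15.9 ± 1.69 CPM per kb. At the low end were the RPE gene at 10.5 ± 0.822, ME1 at 10.2 ± 1.43 and RPIA at 8.39 ± 0.699 CPM per kb. Of neighbours in this order, the RPE gene and ME1, and ME1 and RPIA, overlapped in their samples, whereas the other pairs of neighbours did not. In untreated NRF2 ΔC cells TKT (136 ± 13.3 CPM per kb) and TALDO1 (130 ± 15.5) were at like levels, and ME1 was the lowest member (5.57 ± 0.607 CPM per kb).

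**Figure D1:**
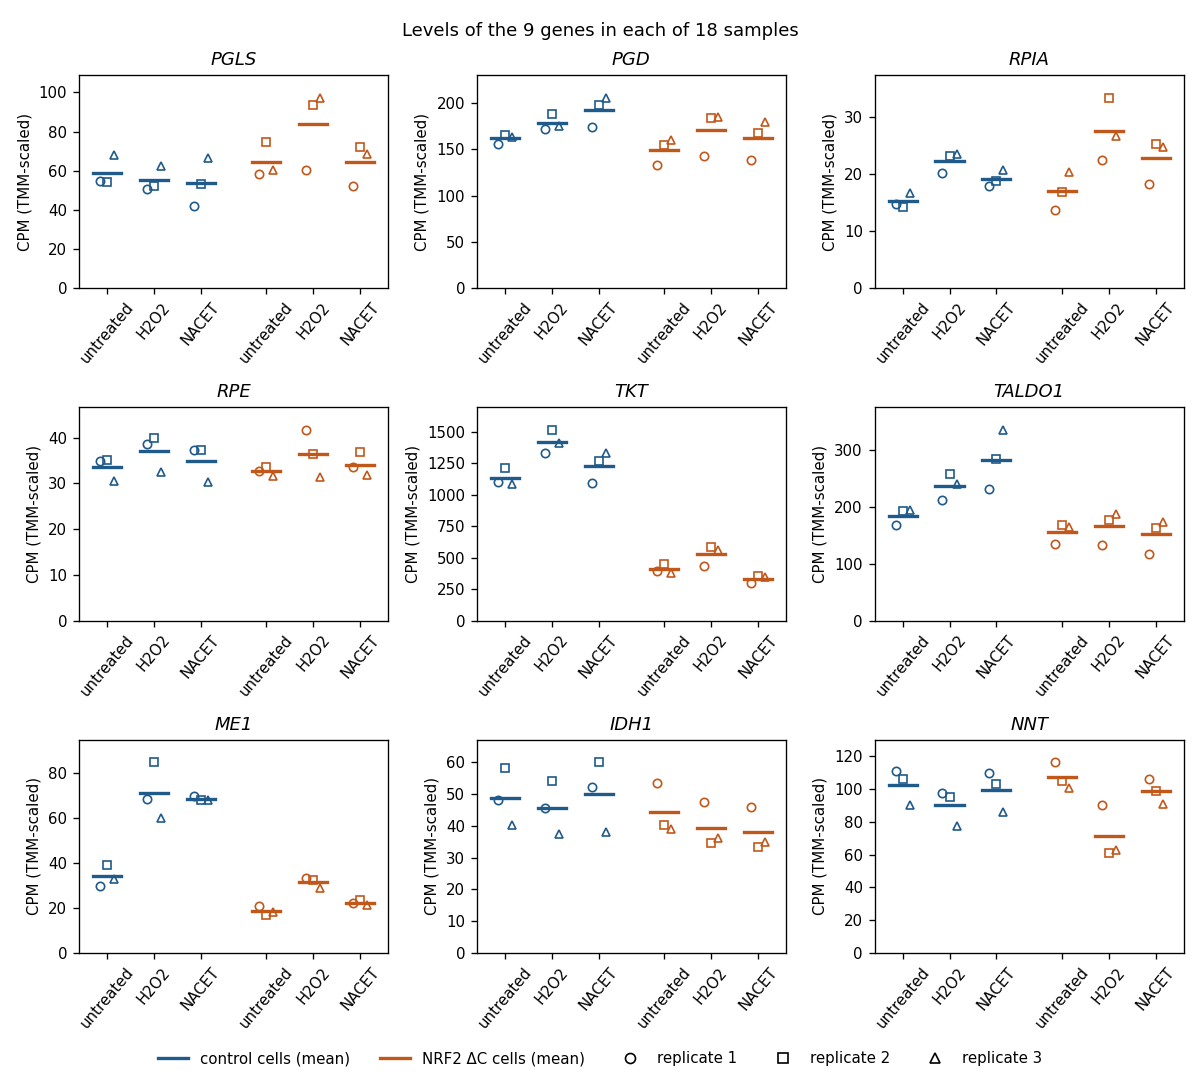
TMM-scaled CPM (vertical axes, each from 0) of the 9 genes in the 18 samples, by group; symbols are replicates and bars are group means, blue for control and orange for NRF2 ΔC cells. TKT separates the cell lines in every treatment, and ME1 is at 60.0 to 84.8 CPM in the treated control samples but at most 33.6 CPM in any NRF2 ΔC sample.

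To see which genes of NADPH supply responded to treatment, each treated group was compared with the untreated cells of its line. DEGs had a Benjamini-Hochberg adjusted p under 0.05 in edgeR's quasi-likelihood test and moved by 0.6 or more on the log2 scale. ME1 was the only member that rose as a DEG, under each treatment in control cells and under H2O2 in NRF2 ΔC cells. Thus 1 of 9 members was a DEG with NACET in control cells, where 2.75% of all genes tested were, and 1 of 9 with H2O2 in control cells, against 6.33%. Among NRF2 ΔC samples it was 0 of 9 with NACET, against 1.39%, and 1 of 9 with H2O2, against 9.81%. Within a cell line the treated groups share their untreated samples. Where samples of a gene are said, here or below, to lie above, below or apart from another group, this only describes them. The share of all genes whose groups did not overlap was not computed. The median log2 fold change of the 9 members in control cells was 0.13 with NACET and 0.145 with H2O2. The corresponding medians in NRF2 ΔC cells were -0.02 and 0.17, where the medians over all genes were between -0.0086 and -0.0038.

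ME1, which turns malate into pyruvate and yields NADPH, was at 30.0, 39.4 and 33.1 CPM in untreated control cells. With NACET the 3 values were 69.9, 68.3 and 68.1 CPM, and with H2O2 they were 68.4, 84.8 and 60.0 CPM. Every treated control sample was thus above every untreated one. The log2 fold change was 1.02 with NACET (SE 0.12, adjusted p = 0.009243, edgeR) and 1.06 with H2O2 (SE 0.15, adjusted p = 0.005352, edgeR). Without replicate 2 of NACET-treated control cells ME1 was no longer a DEG of NACET (1.03, adjusted p = 0.06642, edgeR), while it was a DEG of H2O2 whichever control sample was left out.

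ME1 started lower in NRF2 ΔC cells, at 20.8, 16.9 and 18.1 CPM. H2O2-treated samples held 33.6, 32.6 and 29.0 CPM, above all untreated samples, and rose by 0.75 on the log2 scale (SE 0.15, adjusted p = 0.01771, edgeR). This call was lost without replicate 2 of H2O2-treated cells, or without replicate 2 or 3 of untreated cells (adjusted p = 0.08318, 0.08283 and 0.06687, edgeR), at log2 fold changes of 0.68 to 0.74. With NACET the values of 22.1, 23.4 and 21.5 CPM also lay above those of untreated NRF2 ΔC cells, yet by a smaller margin, and the log2 fold change of 0.25 (SE 0.12, adjusted p = 0.3376, edgeR) did not pass. The highest ME1 level of any NRF2 ΔC sample was within the range of untreated control cells.

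**Figure D2:**
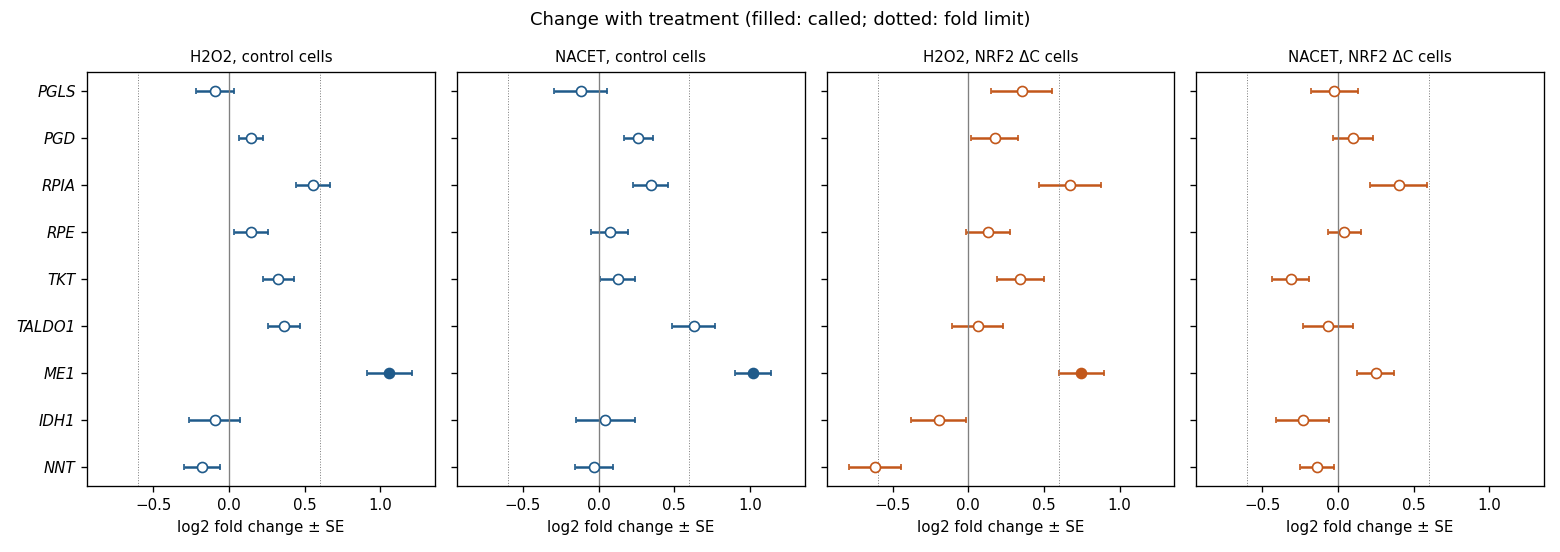
Log2 fold change with its standard error (horizontal axis) of each of the 9 genes for the 4 comparisons of a treatment with untreated cells, fitted by edgeR on 3 against 3 samples; filled points are DEGs and dotted lines mark the fold limit of 0.6. ME1 is filled at 1.06 and 1.02 in control cells and at 0.75 with H2O2 in NRF2 ΔC cells, and TALDO1 at 0.63 (NACET, control cells) and RPIA at 0.67 and NNT at -0.62 (H2O2, NRF2 ΔC cells) lie beyond the limit without passing the test.

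The members of the non-oxidative branch moved less. TALDO1, which transfers a dihydroxyacetone unit between sugars, was at 168, 192 and 194 CPM in untreated control cells. It was at 231, 284 and 335 CPM with NACET and at 213, 258 and 241 CPM with H2O2, so that all treated samples lay above the untreated ones. The log2 fold changes of 0.63 (SE 0.14, adjusted p = 0.0563, edgeR) and 0.36 (SE 0.10, adjusted p = 0.0535, edgeR) missed the threshold. Its levels in NRF2 ΔC cells overlapped between groups, at 135, 168 and 166 CPM untreated, 118, 164 and 174 CPM with NACET and 134, 176 and 187 CPM with H2O2.

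Same-numbered samples of a cell line deviated from their group means together, so the fit was repeated with the number as a block. TALDO1 was then a DEG of NACET in control cells (log2 fold change 0.62, SE 0.06), which made 2 of 9 members, where 7.49% of all genes were DEGs in the blocked fit. Its log2 ratios to the untreated sample of the same number were 0.46, 0.56 and 0.79. The corresponding ratios of TALDO1 in NRF2 ΔC cells were -0.20, -0.04 and 0.07. Under the fold limit, the blocked fit's adjusted p also passed in control cells for PGD (0.26) and RPIA (0.34) with NACET, and for RPIA (0.55), TALDO1 (0.36), TKT (0.33), PGD (0.14) and NNT (-0.18) with H2O2. For NRF2 ΔC cells it passed for RPIA (0.41), TKT (-0.31) and IDH1 (-0.24) with NACET, and for TKT (0.34) and PGLS (0.33) with H2O2. The share of all genes that pass the blocked adjusted p without the fold limit was not computed. These passes therefore cannot be set against it.

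RPIA, the isomerase that forms ribose 5-phosphate, was low in all groups. It was at 14.8, 14.2 and 16.6 CPM in untreated control cells, and at 20.2, 23.2 and 23.4 CPM with H2O2. These groups did not overlap, and the adjusted p passed (0.02008, edgeR) at a log2 fold change of 0.55 (SE 0.11), under the fold limit. With NACET it was at 18.0, 18.8 and 20.7 CPM, again above the untreated samples (0.34, SE 0.11, adjusted p = 0.1408, edgeR). The NRF2 ΔC values of RPIA were 13.8, 16.8 and 20.4 CPM untreated and 22.4, 33.4 and 26.6 CPM with H2O2 (log2 fold change 0.67, SE 0.20, adjusted p = 0.06762, edgeR). The blocked fit and the fit without replicate 1 of H2O2-treated cells made it a DEG there (0.67, SE 0.13, and 0.81). Over all genes these fits called 2538 and 2582, in place of 1329. NACET-treated NRF2 ΔC cells, at 18.2, 25.3 and 24.8 CPM, overlapped with untreated ones.

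TKT, which uses thiamine diphosphate to transfer carbon units, was the most abundant member, at 1106, 1217 and 1085 CPM in untreated control cells. The H2O2-treated samples, at 1335, 1515 and 1413 CPM, did not overlap with these, for a log2 fold change of 0.33 (SE 0.10, adjusted p = 0.07493, edgeR). With NACET the values of 1092, 1269 and 1330 CPM overlapped with the untreated ones. In NRF2 ΔC cells the values were 393, 454 and 379 CPM untreated, 438, 583 and 560 CPM with H2O2 and 296, 353 and 351 CPM with NACET. There TKT had log2 fold changes of 0.34 with H2O2 (adjusted p = 0.1798, edgeR) and -0.31 with NACET (adjusted p = 0.2302, edgeR), and its 3 NACET samples all lay below the untreated ones. The RPE gene, the epimerase, stayed between 30.3 and 41.7 CPM over the 18 samples, with log2 fold changes of 0.04 to 0.14 in these 4 comparisons and overlapping groups.

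Within the oxidative branch no member was a DEG of a treatment. PGD was at 156, 166 and 163 CPM in untreated control cells, at 174, 197 and 206 CPM with NACET and at 172, 188 and 175 CPM with H2O2. All treated samples were above the untreated ones, but the log2 fold changes were 0.26 (SE 0.09, adjusted p = 0.1701, edgeR) and 0.145 (SE 0.08, adjusted p = 0.2619, edgeR). PGD in NRF2 ΔC cells ranged from 133 to 159 CPM untreated and from 138 to 185 CPM in treated samples, which overlapped. PGLS ranged from 41.8 to 68.0 CPM over the 9 control samples, with overlapping groups. In NRF2 ΔC cells it was at 58.4, 74.8 and 60.4 CPM untreated and at 60.3, 93.4 and 97.4 CPM with H2O2 (log2 fold change 0.35, SE 0.20, adjusted p = 0.2725, edgeR).

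IDH1, the cytosolic isocitrate dehydrogenase, did not pass in any of these comparisons without the block, where its log2 fold changes were between -0.23 and 0.04. With the block its adjusted p passed for NACET in NRF2 ΔC cells, under the fold limit (-0.24). IDH1 ranged from 37.4 to 59.9 CPM in control and from 33.4 to 53.6 CPM in NRF2 ΔC samples, with overlapping groups. Its spread followed the replicate number, since replicate 3 was the lowest control sample and replicate 1 the highest NRF2 ΔC sample in each of the 3 treatments. NNT, the mitochondrial transhydrogenase, was at 111, 106 and 90.1 CPM in untreated control cells and at 97.8, 95.3 and 77.7 CPM with H2O2, with a log2 fold change of -0.18 (SE 0.12, adjusted p = 0.3445, edgeR).

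NNT in NRF2 ΔC cells was at 116, 105 and 101 CPM untreated and at 90.6, 60.8 and 62.6 CPM with H2O2. The groups did not overlap, and the log2 fold change was -0.62 (SE 0.17, adjusted p = 0.05055, edgeR). NNT was a DEG in the blocked fit (-0.63, SE 0.10) and without replicate 1 of H2O2-treated cells (-0.81, adjusted p = 0.005024, edgeR). The fit without that sample called 2582 of all genes, in place of 1329. The blocked fit therefore gave ME1, RPIA and NNT, or 3 of 9 members, as DEGs of H2O2 in NRF2 ΔC cells, where it called 18.7% of all genes. With NACET NNT was at 106, 98.9 and 90.9 CPM, overlapping with the untreated samples.

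**Figure D3:**
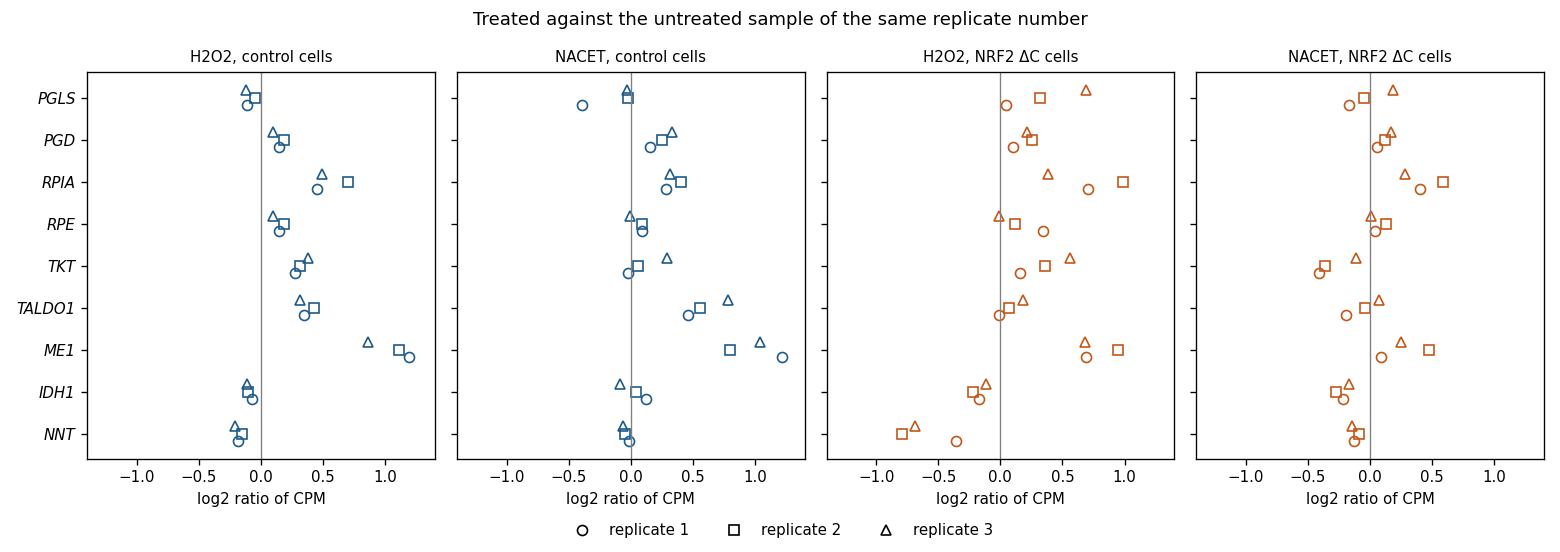
Log2 ratio of CPM between each treated sample and the untreated sample of the same replicate number (horizontal axis) for the 9 genes; symbols are replicates. ME1 is above 0 in all 12 ratios, TALDO1 is at 0.46 to 0.79 with NACET in control cells and around 0 in NRF2 ΔC cells, and NNT is at -0.36 to -0.79 with H2O2 in NRF2 ΔC cells.

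The interaction of treatment and cell line was fitted over 12 samples and is given as the change in control cells minus that in NRF2 ΔC cells. No member passed, 0 of 9 for NACET, where 0.0643% of all genes did, and 0 of 9 for H2O2, against 0.0214%. For NACET, 3 members had an unadjusted p under 0.05 in edgeR's test, as did 228 of all 14002 genes tested. The 3 members were ME1 (log2 difference 0.77, SE 0.16, adjusted p = 0.2428, edgeR), TALDO1 (0.69, SE 0.23, adjusted p = 0.9999, edgeR) and TKT (0.44, SE 0.16, adjusted p = 0.9999, edgeR). For H2O2 no member had an unadjusted p under 0.05 in that test, against 806 of all 13987 genes. The differences of the members ranged from -0.46 (PGLS) to 0.42 (NNT).

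DESeq2 called ME1 in the interaction with NACET (0.77, adjusted p = 0.008883), where it called 27 of all genes. In the interaction with H2O2 it called 75 genes and no member. With the replicate number as a block within each cell line, an alternative chosen after seeing the data, the 3 members named for NACET passed, where 0.9% of all genes did. ME1 then had a difference of 0.78 (SE 0.13, adjusted p = 0.00352, edgeR), TALDO1 of 0.69 (SE 0.09, adjusted p = 0.000625, edgeR) and TKT of 0.44 (SE 0.10, adjusted p = 0.0467, edgeR). The same block gave NNT for H2O2 (0.44, SE 0.11, adjusted p = 0.0255, edgeR), 1 of 9 members against 6.91% of all genes.

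The cell lines were then compared at equal treatment. Compared with control cells, NRF2 ΔC cells had less TKT and ME1 mRNA under all 3 conditions and less TALDO1 mRNA with NACET. These were 2 of 9 members in untreated cells, where 3.85% of all genes were DEGs, 3 of 9 with NACET, against 4.76%, and 2 of 9 with H2O2, against 5.62%. Control and NRF2 ΔC cells differ by the edit and by the selection of 1 clone, which cannot be told apart. The median log2 fold change of the 9 members was -0.12 untreated, -0.28 with NACET and -0.23 with H2O2, against medians of 0.0125, -0.0016 and 0.0056 over all genes.

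TKT showed the clearest separation. The 9 control samples ranged from 1085 to 1515 CPM and the 9 NRF2 ΔC samples from 296 to 583 CPM. Its log2 fold change was -1.47 in untreated cells (SE 0.12, adjusted p = 0.0004047, edgeR), -1.92 with NACET (SE 0.13, adjusted p = 0.0001571, edgeR) and -1.45 with H2O2 (SE 0.15, adjusted p = 0.0006056, edgeR). On the linear scale these are ratios of 0.360, 0.265 and 0.366. All 3 calls held whichever sample was left out.

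ME1 was lower in NRF2 ΔC cells with a log2 fold change of -0.88 when untreated (SE 0.15, adjusted p = 0.01217, edgeR). With NACET it was -1.65 (SE 0.10, adjusted p = 7.497e-05, edgeR), a ratio of 0.318, and with H2O2 -1.18 (SE 0.15, adjusted p = 0.001888, edgeR). The difference in untreated cells was not called without replicate 2 of control cells, or without replicate 2 or 3 of NRF2 ΔC cells (adjusted p = 0.06091, 0.07476 and 0.05207, edgeR), whereas those with NACET and H2O2 held. TALDO1 had a log2 fold change of -0.24 in untreated cells (adjusted p = 0.4463, edgeR), -0.94 with NACET (SE 0.18, adjusted p = 0.02203, edgeR) and -0.53 with H2O2 (SE 0.15, adjusted p = 0.07644, edgeR). With NACET its control samples, at 231 CPM or more, all lay above the NRF2 ΔC samples, at 174 CPM or less. This call was lost without replicate 2 or 3 of control cells or replicate 2 of NRF2 ΔC cells (adjusted p = 0.093, 0.07266 and 0.1101, edgeR).

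The other 6 members were not DEGs between the lines. PGD had log2 fold changes of -0.12, -0.28 and -0.08 in untreated, NACET-treated and H2O2-treated cells. RPIA was at 0.16, 0.21 and 0.28, the RPE gene at -0.04, -0.07 and -0.04 and IDH1 at -0.14, -0.42 and -0.23, in the same order. NNT was at 0.07, -0.04 and -0.36. PGLS was at 0.13, 0.22 and 0.58, and the last of these (SE 0.19, adjusted p = 0.1089, edgeR) became a DEG without replicate 1 of H2O2-treated NRF2 ΔC cells (0.77, adjusted p = 0.00183, edgeR). The fit without that sample called 2416 of all genes, in place of 763.

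**Figure D4:**
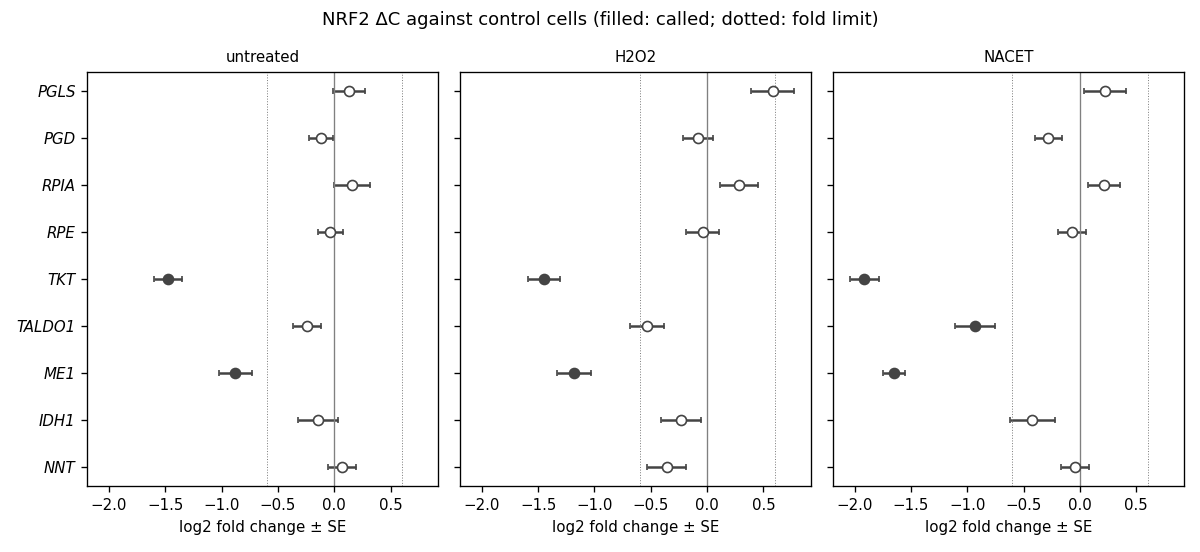
Log2 fold change with its standard error (horizontal axis) of NRF2 ΔC against control cells for the 9 genes, in untreated, H2O2-treated and NACET-treated cells, fitted by edgeR on 3 against 3 samples; filled points are DEGs and dotted lines mark the fold limit of 0.6. TKT at -1.45 to -1.92 and ME1 at -0.88 to -1.65 are filled in all 3 panels, and TALDO1 is filled with NACET at -0.94.

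NACET and H2O2 were also compared with each other, and these comparisons share samples with those above. In control cells 0 of 9 members were DEGs, where 3.67% of all genes were. No member had an unadjusted p under 0.05 in edgeR's test, against 3177 of all 13581 genes. DESeq2 called 651 of all genes and no member. The log2 fold changes of NACET against H2O2 were between -0.20 (RPIA) and 0.28 (TALDO1), and that of ME1 was -0.03 (SE 0.13). The blocked fit made no member a DEG there, where it called 7.5% of all genes. Under the fold limit its adjusted p passed for TALDO1 (0.27, adjusted p = 0.00354, edgeR), TKT (-0.19, adjusted p = 0.00977, edgeR), NNT (0.16, adjusted p = 0.0159, edgeR) and RPIA (-0.20, adjusted p = 0.0441, edgeR). In NRF2 ΔC cells 1 of 9 members was a DEG, against 8.31% of all genes. This was TKT, lower with NACET (-0.64, SE 0.15, adjusted p = 0.03605, edgeR), a call that held without replicate 1 of H2O2-treated cells and was lost without any other single sample. ME1 was also lower with NACET there, under the fold limit (-0.48, SE 0.12, adjusted p = 0.04612, edgeR), and NNT had a log2 fold change of 0.50 (SE 0.17, adjusted p = 0.1103, edgeR). Without replicate 1 of H2O2-treated cells NNT became a DEG (0.70, adjusted p = 0.01526, edgeR). Fits that left out 1 sample in this comparison called 257 to 1601 of all genes, in place of 1121. With the block the adjusted p passed under the fold limit for NNT (0.51), ME1 (-0.48), PGLS (-0.34) and RPIA (-0.24). For the blocked passes under the fold limit in either line, the share over all genes was not computed.

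Other genes of the pathway were read from lists, which were chosen with earlier results of these data known. Counts from them are therefore a description. Of 12 genes of pentose phosphate and ribose metabolism 9 could be tested in each comparison. TIGAR, which lowers fructose 2,6-bisphosphate and so favours the pentose phosphate pathway, rose with H2O2 by a log2 fold change of 1.24 (SE 0.12, adjusted p = 0.001889, edgeR) in control and 1.30 (SE 0.21, adjusted p = 0.008634, edgeR) in NRF2 ΔC cells. Its means were 30.5 ± 4.65 CPM untreated and 72.0 ± 4.92 CPM with H2O2 in control cells (SD, n = 3). PGM1, which links glycogen and glucose 6-phosphate, fell with H2O2 by 0.89 on the log2 scale in both lines (adjusted p = 0.01284 and 0.03681, edgeR). With H2O2, 1 of the 9 rose and 1 fell as DEGs in each line, against 6.33% (control) and 9.81% (NRF2 ΔC) of all genes. None of the 9 was a DEG of NACET against untreated cells, where 2.75% (control) and 1.39% (NRF2 ΔC) of all genes were. Between the lines none was a DEG either, against 3.85% (untreated), 4.76% (NACET) and 5.62% (H2O2). In all, 7 of the 9 were not DEGs in any comparison. Against H2O2, NACET-treated cells had less TIGAR in both lines (-1.27 and -1.54) and more PGM1 in control cells (0.76). In these comparisons 3.67% (control) and 8.31% (NRF2 ΔC) of all genes were DEGs.

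Of 11 other makers of NADPH or NADP, 9 or 10 could be tested in each comparison. MTHFD2, a mitochondrial folate enzyme, was the single DEG among them. NADPH was not measured, so what its mRNA level means for NADPH supply was not tested. In each comparison where MTHFD2 passed it was 1 of 9 tested, and 2.75% to 9.81% of all genes were DEGs there. It rose from 44.2 ± 8.62 CPM to 209 ± 37.7 CPM with H2O2 and to 84.0 ± 14.8 CPM with NACET in control cells (SD, n = 3), with log2 fold changes of 2.24 (SE 0.18, adjusted p = 0.0009545, edgeR) and 0.94 (SE 0.18, adjusted p = 0.03422, edgeR). In the NRF2 ΔC line NACET-treated samples, at 89.5, 145 and 105 CPM, all lay above untreated ones, at 40.2, 67.4 and 66.9 CPM, with a log2 fold change of 0.93 (SE 0.24, adjusted p = 0.09647, edgeR) close to that of control cells. MTHFD2 there rose by 2.58 on the log2 scale with H2O2 (SE 0.24, adjusted p = 0.001463, edgeR), to a level 0.74 above that of control cells (adjusted p = 0.04896, edgeR). It was lower with NACET than with H2O2 in both lines (-1.29 and -1.62).

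Of the 10 enzymes listed that spend NADPH, 9 could be tested and 4 of these rose with NACET in control cells, against 2.75% of all genes called in either direction. They were glutathione reductase GSR (log2 fold change 1.07), thioredoxin reductase TXNRD1 (1.61), quinone reductase NQO1 (2.30) and carbonyl reductase CBR1 (0.72). The paper already reports NQO1 and GSR as induced by NACET, so counts from this list are not a test of it. GSR (0.75), TXNRD1 (1.05) and NQO1 (1.83) rose with H2O2, against 6.33% of all genes, and none of the 9 was a DEG of either treatment in NRF2 ΔC cells, where 1.39% (NACET) and 9.81% (H2O2) of all genes were. Between the lines 3 were lower in untreated NRF2 ΔC cells, namely TXNRD1 (-0.75), NQO1 (-4.03) and CBR1 (-0.64), against 3.85% of all genes. With H2O2 GSR (-0.81) was lower too, making 4, against 5.62%. With NACET GSR (-0.99) and AKR1B1 (-0.80), an aldose reductase, were lower too, making 5, against 4.76%. CBR3 was higher with NACET than with H2O2 in control cells (1.36), 1 of 9 against 3.67% of all genes. In NRF2 ΔC cells none of the 9 was a DEG of that comparison, against 8.31%. TXNRD1 was the gene of all these lists that passed the interaction with NACET (1.39, SE 0.14, adjusted p = 0.003774, edgeR), where 0.0643% of all genes did.

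Among 14153 genes, those whose log2 CPM was most like that of ME1 over the 18 samples were SEL1L3 (Pearson r = 0.964), TRIM16L (0.943) and ASF1A (0.942). The points share libraries and cell lines, and the value of TRIM16L is uncertain because TRIM16 is a near-identical copy.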

How the data were processed

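mRNA of 18 ARPE-19 samples was sequenced as TruSeq single-end libraries. The deposited values are whole-number counts per gene symbol, which the authors made with TopHat 2.1.0 (hg19) and HTSeq 0.11.2 as named in the submitters' processing notes, counting exons without strand and removing ribosomal RNA genes. The gene annotation is not given in the sources used here. Library sizes and tests leave out the 5 summary lines, which name no gene (unassigned reads 15.0 to 17.5%, ambiguous 0.955 to 1.18%, mapped to several places 8.24 to 10.4%), and reads counted on genes made up 72.1 to 74.2%. Depth was 16673306 to 25951154 counted reads per sample, and precision is limited by the spread between 3 replicates and, for members with few counts such as ME1, by counting error of like size in some groups.

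Groups and replicate numbers come from the labels. Counts were tested with edgeR 4.0.16 (R 4.3.3): filterByExpr, TMM, the quasi-likelihood F test (two-sided) on the 6 samples of each pair of groups, or on 12 for the interactions, and Benjamini-Hochberg adjustment over all genes tested. DEGs had an adjusted p under 0.05 and moved by 0.6 or more on the log2 scale, and interactions were called on the adjusted p alone. The standard error is the log2 fold change divided by the square root of F. CPM were computed from TMM-scaled library sizes over all 18 samples, and likeness to ME1 used log2 CPM with a prior count of 2. Replicate numbers were taken to pair samples where every correlation of same-numbered samples' deviations from their group means was over 0.1. Within a cell line they ranged from 0.368 to 0.778 and each sample correlated best with its own number, in all 6 comparisons, and the labels do not say what the numbers mark. The unblocked edgeR fits of NACET in control cells and of its interaction with cell line were run on simulated counts. These counts held no replicate effect, so the simulation did not cover the blocked fits or the other comparisons. Alternatives were DESeq2 1.42.0, RLE size factors, no filter on low counts, no fold limit, a joint fit of all 18 samples, a block of the replicate number and leaving out each sample. For the interactions, a block inside each cell line was chosen after seeing the data.

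The text names the 9 members, each gene of the other pathway lists that was a DEG in any comparison, NFE2L2, and the 3 genes most like each member that was a DEG of a treatment. The members and lists were chosen with earlier results of these data known. Promoters come from RefSeq (GRCh38.p14) and were placed on GRCh37 by exact match, and positions and transcript lengths come from GENCODE v44 lifted to GRCh37. No protein sequence was used here.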

Additional observations from a re-analysis of the deposited data

How the results depend on the processing

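The number of members called depended on the tool and on the pairing. For NACET in control cells it was 1, and 2 with DESeq2, with a joint fit of the 18 samples and with the replicate block, TALDO1 being added. For H2O2 in NRF2 ΔC cells it was 1, and 3 with DESeq2 and with the block (RPIA and NNT added) and 2 with 1 fit of 18 samples. Without the fold limit it was 2 for H2O2 in control cells (RPIA added) and 2 for NACET against H2O2 in NRF2 ΔC cells (ME1 added), in place of 1. For the interaction with NACET it was 0, but 1 with DESeq2, 1 with the replicate block (TALDO1, 0.69, adjusted p = 0.0146, edgeR) and 3 with the block within each cell line. For the interaction with H2O2 the block within each cell line gave 1 in place of 0. RLE size factors and no filter on low counts changed no member's call.

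Leaving out 1 sample gave 0 to 1 members for NACET and 1 to 2 for H2O2 in control cells, 0 to 3 for H2O2 in NRF2 ΔC cells, 1 to 2 between untreated lines, 2 to 3 between lines with NACET and also with H2O2, and 0 to 2 for NACET against H2O2 in NRF2 ΔC cells. It gave 0 in the other comparisons. The log2 fold change of ME1 for NACET against H2O2 in control cells, which passed no test, was -0.03 and ranged from -0.13 to 0.12, turning to 0.12 without replicate 2 of H2O2-treated control cells (adjusted p = 0.632, edgeR). Of 1296 refitted values of the 9 members, 22 newly passed and 15 no longer passed. Another 1258 kept their side of the threshold, and where their sign changed the shift was within 1 standard error. PGLS for NACET in control cells, for instance, ranged from -0.30 to 0.03 as single samples were left out.

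Over all genes, the block raised the calls from 376 to 1026 (NACET) and from 867 to 1400 (H2O2) for control cells, from 188 to 1195 and from 1329 to 2538 in NRF2 ΔC cells, and from 499 to 1019 and 1121 to 2092 for NACET against H2O2. Between the lines, where replicate 2 correlated at -0.212 to -0.00945 and samples share only a number, it gave 843, 1018 and 1524 in place of 528, 648 and 763 and changed no member's call. In the blocked fits of NACET in control cells and H2O2 in NRF2 ΔC cells the spread was largely shared across genes (prior degrees of freedom 382 and 109, against 4.03 and 5.08 without the block), and their p-values are not printed. DESeq2 called 578 genes for NACET in control cells and 570 in the NRF2 ΔC line, and 1 fit of 18 samples 641 in the latter. Without the fold limit 1809 genes were called for H2O2 and 799 for NACET against H2O2 in control cells. The 9 genes of the interaction with NACET became 27 with DESeq2, 3 with RLE, 38 with the block and 126 with the block within lines, and the 3 with H2O2 became 75 with DESeq2, 13 without the filter, 19 in 1 fit, 165 and 967. Leaving out 1 sample gave 31 to 337 (NACET) and 290 to 1047 (H2O2) in control cells, 0 to 462 and 275 to 2582 in NRF2 ΔC cells, 261 to 901 (untreated), 320 to 917 (NACET) and 400 to 2416 (H2O2) between lines, 164 to 588 and 257 to 1601 for NACET against H2O2, and 2 to 8 and 0 to 11 for the interactions. The values of 2582 and 2416 came without replicate 1 of H2O2-treated NRF2 ΔC cells. The causes were not tested.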
